A study of Mus musculus with 4 samples.

Results

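Prostaglandins are lipid signals made from arachidonic acid. The phospholipase Pla2g4a releases arachidonic acid from membranes, the cyclooxygenases Ptgs1 and Ptgs2 turn it into the prostaglandin endoperoxide, and terminal synthases convert that into prostaglandin E (Ptges, Ptges2, Ptges3) or prostacyclin (Ptgis). Ptgs1 is known as the steady enzyme of many tissues, and Ptgs2 as the one induced by growth factors and inflammatory signals, in neurons also by synaptic activity. Ptgs2 RNA is in addition widely used as a marker that accompanies ferroptosis, the iron-dependent cell death named in the series title.

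These 7 genes were taken by symbol from the 16846 genes of the count table, and all 7 were found. The set was chosen by pathway and on earlier results of these data, among them the log2 ratios of Ptgs2 in both Ntoco comparisons. The enzymes' values therefore stand here as a description, and their test calls, given below, are not read as evidence. The cells were HT22, an immortalised line derived from mouse hippocampal neurons, in 4 groups of 2 libraries: control shRNA, shRNA that targets Ntoco, a long noncoding RNA (knockdown), empty vector, and Ntoco overexpression, whose label carries the prefix Lv. The sample titles number the cells HT22 to HT25 while the cell line field gives HT22 throughout. The 2 libraries of a group are not stated to come from separate cultures, so their spread may be technical. No Ntoco value was analysed here, so the group labels were not checked against their target.

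Library totals ran from 18452588 to 19859041 counts, and each group's libraries differed by far more than counting noise (chi-square per gene 62.1 to 156, where counting alone gives about 1). By the median difference in log2 CPM (counts scaled to a common library total), 2 of the 8 libraries lay nearest to the other library of their own group. Of 12 neuronal markers, 8 were listed: the enolase Eno2 had 11.4 to 25.8 CPM, and none of the other 7, Map2 and Tubb3 among them, passed 0.628 CPM in any library, so the RNA held little that marks mature neurons. The 7 fibroblast and meningeal markers summed to 2217 to 6318 CPM, lowest in knockdown library 2 and highest in knockdown library 1, against 11.5 to 19.01 CPM for 7 microglial and macrophage markers. In CPM, which does not correct for gene length, the first sum was mostly the collagen Col1a2 and the fibronectin Fn1, with Lum at 0 in every library. In the second the lysosomal protein Cd68 had the most CPM in every library (4.84 to 13.7), with Ptprc at 0 throughout. The 5 astrocyte markers in the table summed to 20.7 to 99.4 CPM. The part of these differences in the values below was not tested, and in bulk RNA fewer cells of a type and less RNA per cell cannot be told apart.

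The sequences at the 5′ and 3′ ends separate the cyclooxygenase genes, whose RNA levels differed most among the 7. Ptgs2 (Entrez Gene 19225) lies on chromosome 1, bases 150100031 to 150108234 of GRCm38, plus strand, and Ptgs1 (Entrez Gene 19224) on chromosome 2, bases 36216742 to 36258593, plus strand. Their RefSeq promoters (GRCm38.p6), from 250 bases before to 50 after an annotated start, are chr1:150099781-150100080 and chr2:36230176-36230475, both on the plus strand, the latter around a start inside the longest gene model. Capitals mark matches, on either strand, to any of the motifs NF-kB (GGGA and CC with 4 free bases between), CRE core (TGACG), AP-1 (TGANTCA), C/EBP (TTNNGNAA), TATA box (TATAAA), E-box (CACGTG) and hypoxia response core (ACGTG), the last contained in the E-box. The search for the TATA box also took the variant TATATAA.
Ptgs2 promoter: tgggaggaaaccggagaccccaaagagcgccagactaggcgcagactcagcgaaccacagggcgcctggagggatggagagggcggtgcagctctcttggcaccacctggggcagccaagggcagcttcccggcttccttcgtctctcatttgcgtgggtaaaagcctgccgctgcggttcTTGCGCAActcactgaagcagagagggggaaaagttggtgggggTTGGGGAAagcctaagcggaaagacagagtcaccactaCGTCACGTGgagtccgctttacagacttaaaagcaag
Ptgs1 promoter: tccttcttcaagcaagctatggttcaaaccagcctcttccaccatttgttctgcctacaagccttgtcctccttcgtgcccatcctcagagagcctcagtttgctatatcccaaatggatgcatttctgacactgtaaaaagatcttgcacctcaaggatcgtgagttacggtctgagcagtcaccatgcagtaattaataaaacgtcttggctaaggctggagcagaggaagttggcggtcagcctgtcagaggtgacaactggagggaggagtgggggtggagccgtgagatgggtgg
The Ptgs2 window held C/EBP matches starting 69 and 25 bases before the start and a run after it, in which a CRE core overlaps an E-box. The Ptgs1 window held 0 matches to these letters. Over 32851 mouse promoters of this length, 40.7% held the C/EBP letters, 20.8% the CRE core, 7.15% the E-box and 20.7% the NF-kB letters. Of the 7 genes, 6 had a promoter in the table, and the NF-kB letters matched in 1 of them, Ptges3. A match describes the letters of the window and says nothing of binding.

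The 3′ untranslated region of Ptgs2 is rich in ATTTA, the pentamer of AU-rich elements through which many short-lived inflammatory messages are degraded. In GENCODE M21 (same build) the longest annotated region of Ptgs2, 2445 bases, held 14 ATTTA, more than in 97.4% of 15597 genes. The densest stretch of 30 bases, chr1:150105794-150105823 on the plus strand, begins at base 12 after the stop codon and holds 4 of them, shown in capitals with overlaps merged.
Ptgs2 AU-rich stretch: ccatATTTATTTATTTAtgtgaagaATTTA
Pla2g4a held 4 in 443 bases, a density of 9.03 per kilobase, above that of 98.8% of genes and above the 5.73 of Ptgs2. The longest annotated regions of Ptges2 and Ptges3 held 4 each in 3444 and 1186 bases, and those of Ptgs1, Ptges and Ptgis held 0. That of Ptges2 is longer than the whole gene length behind its FPKM, 1952 bases. It thus cannot lie wholly in the gene model that was counted.

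Per length, the synthase Ptges3 was by far the most abundant of the 7. Its median over the 8 libraries was 96.4 FPKM (counts per kilobase of gene, scaled to the library total), followed by Ptges2 at 27.8, Ptgis at 12.3, Pla2g4a at 10.1, Ptgs2 at 9.54, Ptges at 7.11 and Ptgs1 at 1.81 FPKM. The range of Ptges3 (85.5 to 109) lay above all others, and that of Ptges2 (24.9 to 34.6) met only the top of that of Ptgs2. Those of Ptgis (9.89 to 15.1), Pla2g4a (6.03 to 14.2), Ptgs2 (4.77 to 25.3) and Ptges (3.84 to 11.9) overlapped, so the order among these 4 is not fixed. Ptgs1 ranged from 1.16 to 4.47 FPKM, so its top passed the lowest value of Ptges. Ptges3, also known as the Hsp90 co-chaperone p23, has a pseudogene on chromosome 6, Ptges3-ps, which was counted at 0.222 to 0.258 of the counts of Ptges3, so reads of near-identical sequence may have been split between them.

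**Figure D1:**
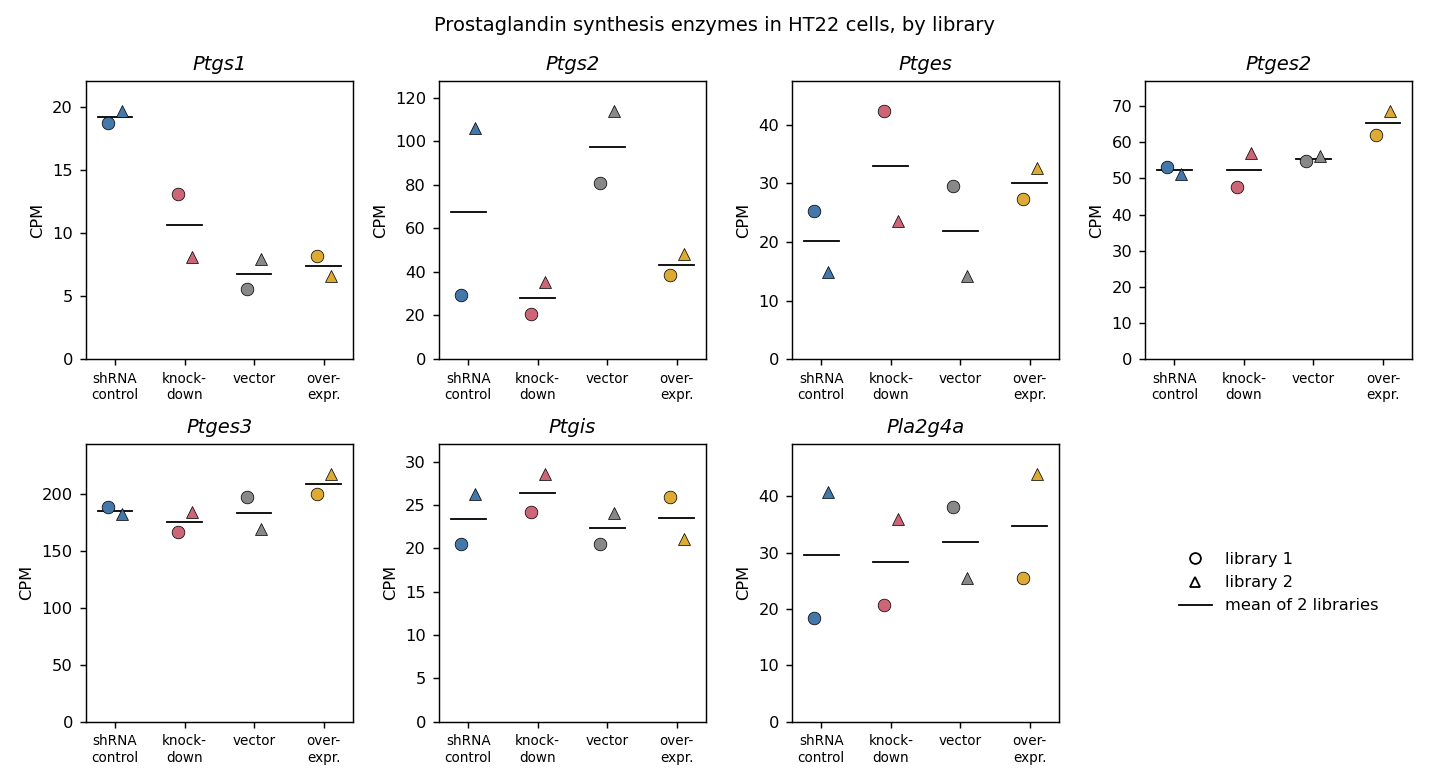
CPM of each of the 7 enzymes (vertical axes from 0, a scale of its own in each panel) in the 4 groups; circles are library 1, triangles library 2 and lines the mean of both. The shRNA control libraries are highest for Ptgs1, at 18.7 and 19.7 CPM, and the Ptgs2 points of that group lie far apart, at 29.2 and 106 CPM.

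Ptgs2, the inducible cyclooxygenase, had its lowest group mean in the knockdown and its highest with empty vector, with the shRNA control libraries spread over nearly the whole range. It had 29.2 and 106 CPM under control shRNA and 20.8 and 35.6 CPM under Ntoco shRNA. The groups overlapped, because shRNA control library 1 lay between the knockdown libraries. The group means were 67.7 ± 54.4 and 28.2 ± 10.4 CPM (SD, n = 2), and the fitted log2 ratio of knockdown over shRNA control was -1.26 (SE 0.55). With shRNA control library 2 left out that ratio was -0.06, and with library 1 of that group left out it was -1.91, so its size turned on which control library was kept.

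In the other Ntoco comparison the Ptgs2 groups stood apart. The vector libraries had 80.7 and 114 CPM and the overexpression libraries 38.6 and 48.2 CPM, means of 97.3 ± 23.5 and 43.4 ± 6.74 CPM (SD, n = 2). Both overexpression libraries were below both vector libraries, and the log2 ratio was -1.17 (SE 0.55), or 2.24-fold lower. It ranged from -1.39 to -0.89 with 1 library left out. The overexpression libraries lay within the range of the shRNA control libraries. The log2 ratio of vector over shRNA control was 0.52 (SE 0.54). It was -0.13 with only library 2 of the shRNA control kept, and 1.73 with only library 1 kept.

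The Ptgs2 log2 ratio was thus negative both with Ntoco lowered and with Ntoco raised, each against its own control. The overexpression effect minus the knockdown effect was 0.10 (SE 0.77), with a 95% interval from -1.68 to 1.87. This interval spans differences of more than 3-fold in either direction and does not show that the effects were alike. The difference was -1.11 with only library 1 of the shRNA control kept, and 0.75 with only library 2 kept.

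Ptgs1, the other cyclooxygenase, followed another order. It had 18.7 and 19.7 CPM under control shRNA, 13.1 and 8.13 CPM under Ntoco shRNA, 5.56 and 7.93 CPM with empty vector and 8.19 and 6.56 CPM under Ntoco overexpression. Both shRNA control libraries were above all 6 others, as in 4.59% of the 12115 genes tested. The knockdown mean was 10.6 ± 3.53 CPM against 19.2 ± 0.689 CPM in its control (SD, n = 2), a log2 ratio of -0.86 (SE 0.34) that ranged from -1.25 to -0.55 with 1 library left out. In the overexpression comparison the groups overlapped, with a log2 ratio of 0.13 (SE 0.34). The overexpression effect minus the knockdown effect was 0.98 (SE 0.48, 95% interval -0.12 to 2.09).

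The widest gap in Ptgs1 lay between the control groups. The vector mean was 6.75 ± 1.68 CPM (SD, n = 2), 2.85-fold below the shRNA control, a log2 ratio of -1.51 (SE 0.34) with a range of -1.79 to -1.28 when 1 library was left out. Sums of some marker lists were also lower in the vector libraries. The fibroblast and meningeal markers had 4307 and 4536 CPM under control shRNA and 2498 and 3332 CPM with empty vector. The astrocyte markers had 64.6 and 65.3 CPM and then 20.7 and 43.4 CPM. The microglial and macrophage markers had 19.01 and 18.84 CPM and then 13.63 and 14.88 CPM. The neuronal, oligodendrocyte and endothelial sums overlapped between these groups. Knockdown library 1 had the highest fibroblast and astrocyte sums, 6318 and 99.4 CPM, with Ptgs1 at 13.1 CPM, below both shRNA control libraries. Knockdown library 2 had sums of 2217 and 30.4 CPM, with Ptgs1 at 8.13 CPM. The overexpression libraries had fibroblast sums of 2951 and 2804 CPM and astrocyte sums of 84.3 and 45.8 CPM. Ptgs1 was at 8.19 and 6.56 CPM in them. The part of these markers in the Ptgs1 difference was not tested. The vector and shRNA control groups are different control constructs, so the construct, its delivery and the batch cannot be told apart.

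The share of Ptgs2 in the cyclooxygenase message moved with both genes. Ptgs2 made up 61.4% and 84.6% of the summed FPKM of Ptgs1 and Ptgs2 in the shRNA control libraries and 61.8% and 81.7% under Ntoco shRNA. It made up 93.7% and 93.6% with empty vector and 82.8% and 88.2% under Ntoco overexpression. The knockdown shares lay within the range of their control, and both overexpression shares lay below both vector shares. Ptgs2 was the larger part in all 8 libraries.

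**Figure D2:**
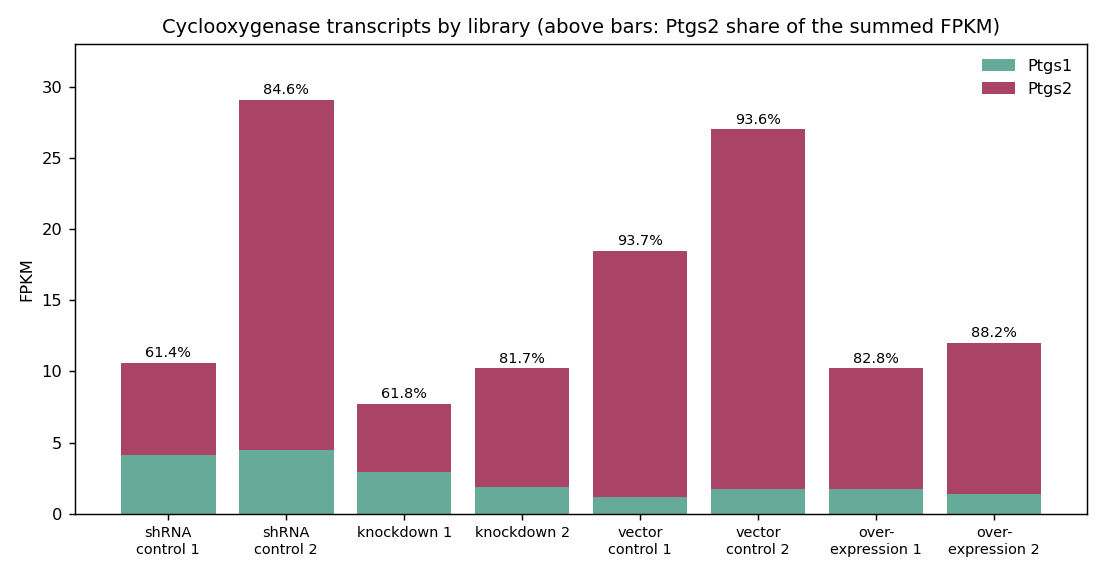
FPKM of Ptgs1 and Ptgs2 stacked for each of the 8 libraries (vertical axis in FPKM, from 0), with the Ptgs2 share above each bar. Summed FPKM is 29.1 in shRNA control library 2 and 27.0 in vector library 2, against 7.72 in knockdown library 1, and the vector libraries have the largest Ptgs2 shares, 93.7% and 93.6%.

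Pla2g4a, which supplies the substrate, differed more between the libraries of a group than between groups. It had 18.5 and 40.7 CPM under control shRNA, 20.7 and 35.9 CPM under Ntoco shRNA, 38.1 and 25.5 CPM with empty vector and 25.4 and 44.0 CPM under Ntoco overexpression. The groups overlapped in all 3 comparisons, with log2 ratios of -0.07, 0.13 and 0.10 (SE 0.46 each) for knockdown, overexpression and vector. The Pla2g4a knockdown ratio was -0.53 without library 1 and 0.61 without library 2 of the shRNA control. The gene (chromosome 1, 149829618 to 149961290, minus strand) is the protein-coding neighbour of Ptgs2, 138.7 kb away and pointing in the opposite direction. Across the 8 libraries the log2 CPM of these neighbours had a Pearson r of 0.53 (Spearman rho 0.62). Both were higher in library 2 than in library 1 of the shRNA control, knockdown and overexpression groups.

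The inducible prostaglandin E synthase Ptges, often induced together with Ptgs2, was not highest where Ptgs2 was highest. Ptges had 25.2 and 14.9 CPM under control shRNA, 42.4 and 23.5 CPM under Ntoco shRNA, 29.5 and 14.2 CPM with empty vector and 27.3 and 32.7 CPM under Ntoco overexpression. Its groups overlapped in each comparison, and the log2 ratios were 0.71 (SE 0.44) for knockdown, 0.46 (SE 0.44) for overexpression and 0.12 (SE 0.44) for vector. The Ptges knockdown ratio ranged from 0.22, without knockdown library 1, to 1.14, without shRNA control library 1, and the overexpression ratio from 0.03, without vector library 2, to 1.09, without vector library 1. Over the 8 libraries Ptges and Ptgs2 had a Pearson r of -0.77 and a Spearman rho of -0.57: the libraries highest in Ptgs2, shRNA control 2 and vector 2, were the lowest in Ptges. Annotated genes Gm52550, a long noncoding RNA, and Gm13400, a pseudogene, overlap Ptges (chromosome 2, 30889471 to 30931020), and the strand setting of the counting is not given in the sources used here.

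The other terminal synthases varied little. Ptges3 ranged from 167 to 218 CPM, Ptges2 from 47.6 to 68.7 CPM and Ptgis from 20.5 to 28.6 CPM over the 8 libraries. These spans are 1.31-, 1.44- and 1.40-fold, against 5.48-fold for Ptgs2 and 3.55-fold for Ptgs1. Ptges2, a membrane-associated synthase, had 54.8 and 56.1 CPM with empty vector and 62.0 and 68.7 CPM under Ntoco overexpression (log2 ratio 0.24, SE 0.18). Ptges3 had 197 and 169 CPM with empty vector and 200 and 218 CPM under Ntoco overexpression (log2 ratio 0.19, SE 0.17). Both synthases were thus higher in both overexpression libraries than in both vector libraries, by a small amount. In the knockdown their log2 ratios were 0.00 (SE 0.18) and -0.08 (SE 0.17), and Ptgis, the prostacyclin synthase, had a log2 ratio of 0.18 (SE 0.24) there and 0.08 (SE 0.24) in the overexpression comparison. Ptges3 lies on chromosome 10 (128058982 to 128077254, plus strand) and Ptgis on chromosome 2 (167203194 to 167252150, minus strand), where the long noncoding RNA gene Gm52569 overlaps it.

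Ptges2 sits 8.2 kb from Lcn2, the lipocalin gene of the series title, with no protein-coding gene of the RefSeq annotation between them (Ptges2 is on chromosome 2, 32395890 to 32402740, plus strand; Lcn2, minus strand, ends at 32387739). Lcn2, named here for its position, had 15.0 and 16.8 CPM under control shRNA and 14.3 and 907 CPM under Ntoco shRNA. It had 229 and 65.8 CPM with empty vector and 29.3 and 28.3 CPM under Ntoco overexpression. Over the same 8 libraries Ptges2 stayed within the 1.44-fold span given above, and in knockdown library 2, where Lcn2 was highest, it had 56.9 CPM.

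**Figure D3:**
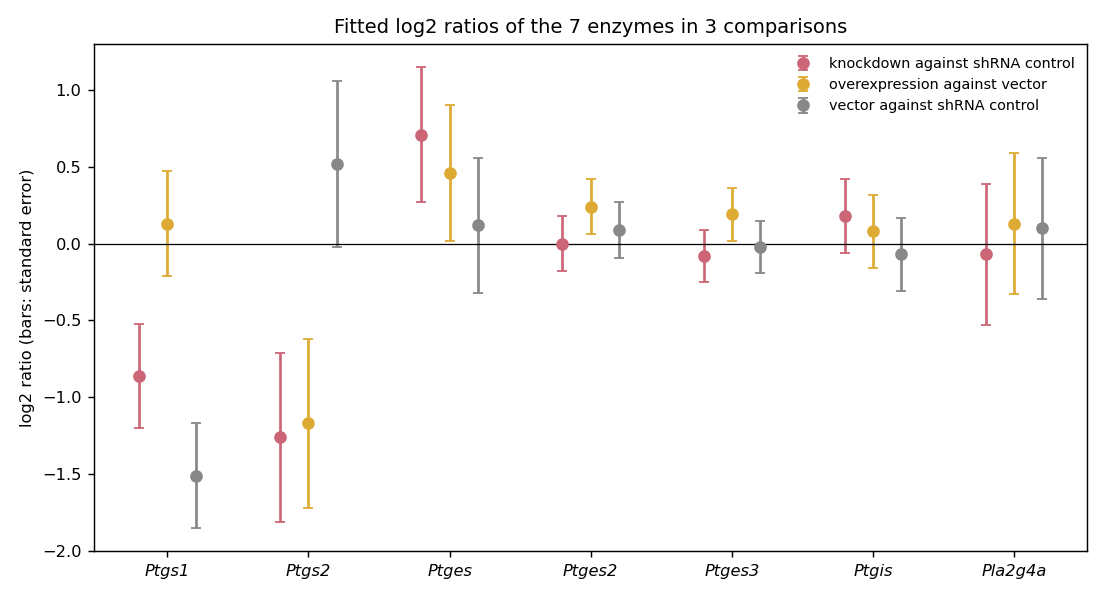
Fitted log2 ratios (points) with standard errors (bars) of the 7 enzymes in the knockdown, overexpression and vector comparisons; the line at 0 is no difference. Ptgs2 is below 0 in both Ntoco comparisons (-1.26 and -1.17) and Ptgs1 in the knockdown and vector comparisons (-0.86 and -1.51), while Ptges2, Ptges3 and Ptgis stay within 0.24 of 0.

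Counts of the 7 enzymes are given beside those of all genes, and nothing is read from them, since the set was chosen with these contrasts known. By edgeR's adjusted p (threshold 0.05), 0 of the 7 were called in the knockdown, overexpression and vector comparisons and in the difference between effects, against 0.00% of the 12115 genes tested in each. At an unadjusted p under 0.05 there was 1 in the knockdown comparison, Ptgs1 (background 3.12%), 0 in the overexpression comparison (7.62%), 1 in the vector comparison, Ptgs1 again (12.5%), and 0 in the difference (6.92%). DESeq2's adjusted p called 0, 0, 1 (Ptgs1) and 0 of them, and 15, 1, 281 and 14 over all genes. No share over all genes was taken for DESeq2, so its 1 call has no background beside it. In the knockdown 1 enzyme, Ptgs1, was lower in both libraries than in both control libraries, where 14.1% of all genes were, and 0 were higher (15.1%). In the overexpression comparison 2 were higher, Ptges2 and Ptges3 (24.1%), and 1 was lower, Ptgs2 (23.1%). Against the shRNA control, the vector libraries were both higher in Ptges2 (24.6%) and both lower in Ptgs1 (26.5%). Median log2 ratios of the 7 were -0.07, 0.13 and 0.09, against 0.01, -0.01 and 0.00 over all genes tested.

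The wider pathway was described from a list of 84 genes, of which 70 were in the table and 56 were tested. It covers other phospholipases, terminal synthases, receptors, transporters and breakdown enzymes, the lipoxygenase and cytochrome branches, and regulators known to act on Ptgs2. With edgeR 0 of the 56 were called in any comparison, with 2, 6 and 6 at an unadjusted p under 0.05 in the knockdown, overexpression and vector comparisons (3.12%, 7.62% and 12.5% of all genes). Both libraries were higher for 11, 10 and 14 of them (15.1%, 24.1% and 24.6% of all genes) and lower for 4, 15 and 14 (14.1%, 23.1% and 26.5%). The median log2 ratios were -0.03, 0.01 and -0.07.

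Among receptors, the prostacyclin receptor Ptgir was well expressed, with 74.6 to 119 CPM and log2 ratios of -0.06 (SE 0.23) in the knockdown and -0.08 (SE 0.23) in the overexpression comparison. The prostaglandin E receptor Ptger4 had 2.47 to 8.42 CPM. Ptger1 had 1.02 and 1.18 CPM with empty vector and 0.412 and 0.276 CPM under Ntoco overexpression (19, 23, 8 and 5 counts; log2 ratio -1.66, SE 0.61). Ptger3 had at most 1 count in any library, and Ptger2 was not in the count table. Per length, Ptgir had 22.9 to 35.3 FPKM and Ptger4 0.735 to 2.59 FPKM, so the prostacyclin receptor was the more abundant message of the pair in every library. The breakdown enzyme Hpgd had 1 count in 1 library and 0 in the rest, and the thromboxane synthase Tbxas1 had at most 2 counts.

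Of the listed genes whose groups did not overlap, those with the widest log2 ratios were mostly rare messages. In the knockdown they were the cytochromes Cyp1b1 (log2 ratio 1.47, SE 0.78) and Cyp4f13 (1.11, SE 0.48) and the transcription factor Cebpd (1.46, SE 0.49). In the overexpression comparison they were the epidermal lipoxygenase Aloxe3 (-1.81, SE 0.64), Ptger1 and the phospholipase Pla2g4b (-1.57, SE 0.67). Aloxe3 had 1.93 and 2.42 CPM with empty vector and 0.464 and 0.772 CPM under Ntoco overexpression, so it was a rare message in every group.

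Several inflammatory regulators had higher values in the vector libraries than under control shRNA, and none of them passed the test. For Ptgs2 these groups overlapped, with a log2 ratio of 0.52 (SE 0.54) that turned to -0.13 without shRNA control library 1. Ptgs2 was thus not shown to rise together with these regulators. In that comparison 8 of the 14 regulators tested were higher in both vector libraries than in both shRNA control libraries and 0 were lower, where 24.6% and 26.5% of all genes were, with a median log2 ratio of 0.45 and 0 calls by edgeR. The cytokine Il6 had 0.157 and 0.467 CPM under control shRNA and 1.34 and 4.58 CPM with empty vector (log2 ratio 3.22, SE 1.11). Tnf had 12.2 and 11.99 CPM and then 31.7 and 46.9 CPM (log2 ratio 1.70, SE 0.73), and the thromboxane receptor Tbxa2r had a log2 ratio of -1.83 (SE 0.82). Cebpb, a C/EBP factor, had 51.8 and 67.3 CPM under control shRNA, 119 and 118 CPM with empty vector and 74.0 and 62.3 CPM under Ntoco overexpression.

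In the shRNA control, where the Ptgs2 libraries differed 3.63-fold, Tnf was level at 12.2 and 11.99 CPM. Il6, a rare message (mean 0.312 CPM), and Cebpb were higher in the library with more Ptgs2. So were Cebpd, Jun and Zfp36, with ratios of library 2 over library 1 of 1.35, 1.95 and 4.94. Nfkb1, Rela, Nfkbia and Tnfaip3 were nearly level (0.990, 1.04, 1.06 and 0.926). Elavl1 and Anxa1 were lower (0.796 and 0.590). The immediate early gene Egr1 had 260 and 1682 CPM there, and Fos 41.7 and 456 CPM. In the vector libraries, where Ptgs2 had 80.7 and 114 CPM, Fos had 47.9 and 46.0 CPM and Egr1 241 and 678 CPM. In knockdown library 1, the lowest in Ptgs2, Fos had 172 CPM. The part of these genes in the Ptgs2 level was not tested. The difference of Ptgs2 between the shRNA control libraries, 1.86 in log2, was larger than that of 98.6% of genes there, and the difference of Pla2g4a, 1.14, larger than that of 94.9%.

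**Figure D4:**
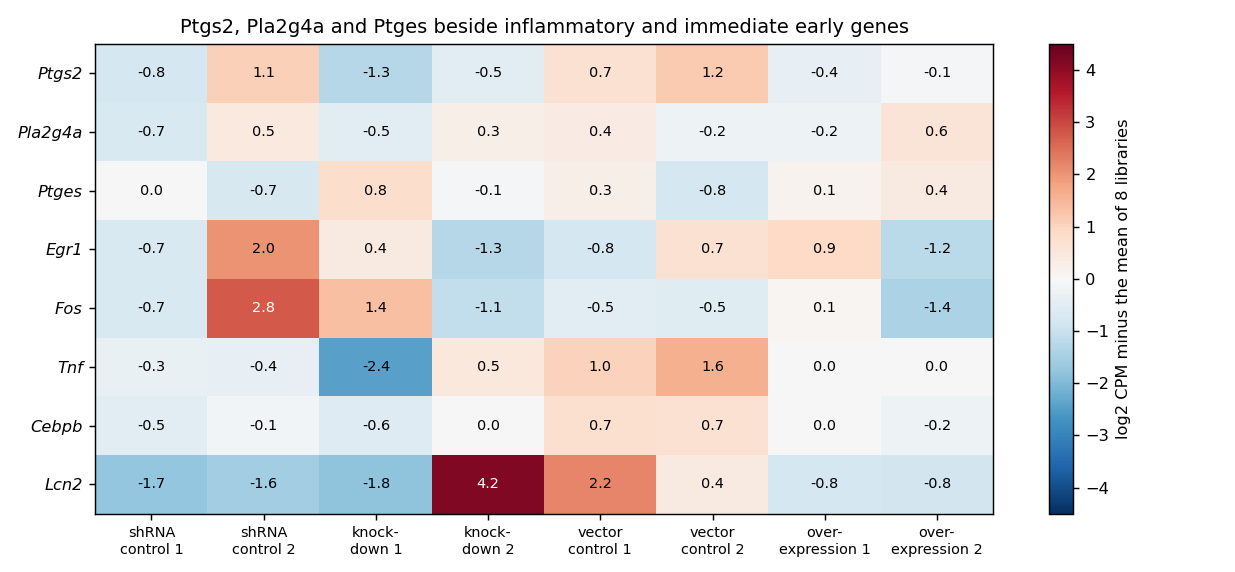
Log2 CPM minus the mean of the 8 libraries (colour and printed value; red above, blue below) for Ptgs2, Pla2g4a and Ptges beside 5 genes of the immediate early and inflammatory responses, by library. Ptgs2 is above its mean in shRNA control library 2 (1.09), with Fos at 2.77, and in the vector libraries (0.69 and 1.19), with Fos at -0.48 and -0.54.

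The genes whose log2 CPM was most like that of each enzyme over the 8 libraries are given as a description, with no p. For Ptgs2 they were Gak (Pearson r 0.957, Spearman rho 0.905), Hdac4 (0.950, 0.905) and Pds5a (0.949, 0.905). Hdac4 covered 39.8 to 122 CPM, while Gak covered 164 to 212 CPM, so a high r does not mean a change of like size. For Ptgs1 they were Mphosph9 (0.995, 0.905), Rhot2 (0.978, 0.833) and Ccdc136 (0.970, 0.976). For Ptges they were Kctd7 (0.939, 0.905), 2210418O10Rik (0.939, 0.786) and Fbxl15 (0.918, 0.881), and for Pla2g4a they were Rasal2 (0.906, 0.738), Uspl1 (0.903, 0.833) and Elp4 (0.897, 0.738). Ptges2 was nearest to Rpl8 (0.960, 0.952), Esd (0.950, 0.786) and Rpp30 (0.944, 0.833). Ptges3 was nearest to Bud31 (0.944, 0.929), Arfip2 (0.932, 0.952) and D030056L22Rik (0.923, 0.952), and Ptgis to Pard6a (0.964, 0.952), Manea (0.958, 0.952) and Smim19 (0.949, 0.857). Among the enzymes themselves the highest correlation was that of Ptges2 and Ptges3 (0.81, rho 0.74).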

How the data were processed

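The authors deposited whole-number read counts per gene and FPKM values for the same 16846 genes in 8 columns. In 12615 of 12615 genes counted in every library the deposited FPKM equals the count divided by a single gene length and the column total, within a tolerance of 0.01. Per the submitters' processing notes the tools were HISAT2, HTSeq, Cufflinks, DESeq and Trimmomatic, with mm10 (GRCm38) as build; their versions, roles and strand setting were not given. Per the labels' protocols, the libraries came from a stranded kit for polyadenylated RNA. Each column went to a group through the role its name states (0 left over); the labels list 1 sample per group, and its 2 columns were used as separate libraries because they differed beyond counting noise.

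Genes passing filterByExpr (minimum count 10) numbered 12115, all 7 enzymes among them. One edgeR quasi-likelihood model over the 4 groups with TMM scaling gave log2 ratios, standard errors and Benjamini-Hochberg adjusted p-values (threshold 0.05); residual degrees of freedom were 4 and the biological coefficient of variation was 28.0%. The code was tested on simulated data with less spread between libraries than these data, so that test says nothing of power here. CPM are TMM-scaled; FPKM are not. Levels of the enzymes and receptors are compared between genes in FPKM. Marker genes are summed and compared in CPM, which does not correct for gene length. Alternatives were DESeq2, its size factors, no filter, the compared groups only, the column number as a block and each library left out. The enzymes, lists, motifs and rules were chosen with earlier results of these data known. By rule, the text names all 7 enzymes, their 3 most similar genes (Pearson r, log2 CPM with prior count 2, mean CPM of at least 1), the E receptors, and per comparison the 3 listed genes with the largest log2 ratio among those not overlapping; other listed genes were named after their values were seen. The replicate numbers stand only in the column names. Promoters are from RefSeq and 3′ regions from GENCODE. The fits used edgeR 4.0.16 and limma 3.58.1, with DESeq2 1.42.0 as the alternative, in R 4.3.3; sequences and plots were handled with pandas 2.3.3, matplotlib 3.10.9 and numpy 2.4.6.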

Additional observations from a re-analysis of the deposited data

How the results depend on the processing

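The count of enzymes called was 0 in each contrast under every alternative run for it except DESeq2, which called 1, Ptgs1, between vector and shRNA control. The fit with only the compared groups was run for the 3 comparisons and not for the difference between effects. Over all genes, DESeq2 called 15 in the knockdown, 1 in the overexpression and 281 in the vector comparison and 14 for the difference between effects, where edgeR called 0. With no filter edgeR called 3 in the vector comparison, and with only the compared groups 1 in the overexpression and 128 in the vector comparison. Leaving out 1 library gave 0 to 1 genes in the knockdown, 0 to 25 in the overexpression, 0 to 97 in the vector comparison and 0 to 1 for the difference; the cause was not tested, and a lone library is assumed to vary like the other groups. With the column number as a replicate block, edgeR called 0 genes in all 4 contrasts. Same-numbered libraries deviated together with correlations from -0.36 to 0.36 across genes, so the numbers were not taken to pair the libraries. Of 133 enzyme log2 ratios under the other settings, 133 moved by less than the spread between libraries and 7 changed sign. Of 224 with 1 library left out, 16 moved by more and 36 changed sign. The 224 include fits that left out a library of a group outside the comparison. Such ratios could hardly move, so the 224 overstate how stable the ratios were. At these depths the spread between libraries, not the counting error, limits the precision.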
